A study of Sus scrofa with 6 samples.

Results

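The 9 digestive enzymes described here belong to the intestinal brush border and were followed in the ileum of newborn piglets. They are the disaccharidases LCT, SI and TREH, the meprin subunits MEP1A and MEP1B, the aminopeptidases ANPEP and ENPEP, the dipeptidyl peptidase DPP4 and the peptidase-like protein NAALADL1. The genes were chosen by symbol, and all 9 of the 9 symbols were among the 20648 genes counted. They were described in barcodes with at least 1000 UMIs (unique molecular identifiers, the count of distinct captured transcripts) and at least 500 genes, of which there were 76099. Among these, 4054 were taken as epithelial cells because EPCAM, KRT8 and VIL1 together gave at least 5 UMIs and the leukocyte gene PTPRC gave at most 1. The epithelial cells were divided by OLFM4, a marker of crypt cells, into 3570 OLFM4-low cells with 0 or 1 UMI and 394 OLFM4-high cells with 5 UMIs or more.

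Droplet-based single-cell libraries were made from the ileal mucosa of male piglets of a pure large white line on days 0, 1, 3, 7, 14 and 21 after birth, with 1 library per age. All the animals were fed maternal milk and received no antibiotics or vaccines, and no group was treated. Several piglets were collected at each age, and the labels do not say how many entered a library. The design text of the series names the cecum, whereas the labels of all 6 libraries name the ileum.

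Absorptive enterocytes carry a dense border of microvilli on the side facing the gut lumen, and hydrolases anchored in that membrane finish the digestion of sugars and peptides next to the transporters that take up the products. Crypt cells have few of these enzymes, and the enzymes appear as the cells leave the crypt and move along the villus. In suckling mammals lactase splits the milk sugar, and sucrase-isomaltase becomes abundant around weaning, when starch and sucrose enter the diet.

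The libraries held between 77391932 and 100348769 UMIs. The share of epithelial cells was 25.3%, 8.72%, 0.792%, 1.52%, 0.175% and 0.00724% on days 0, 1, 3, 7, 14 and 21, which corresponded to 2741, 1002, 90, 192, 28 and 1 cells. The day 21 library thus gave a single epithelial cell, with 2 UMIs of DPP4 and none of the other 8 genes, and it was left out of the comparisons by age. Any 2 libraries shared 31 to 68 cell barcodes, beside 18.1 to 32.4 for independent draws from all barcodes listed. Because each age was 1 library, age and library cannot be told apart, no test between ages was possible, and the 95% intervals (exact Poisson for levels) cover counting error only.

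The OLFM4-low cells were not of the same kind at every age. A list of 6 enterocyte markers, among them FABP2, RBP2 and APOA4, together gave 80.1, 173, 7.40, 109 and 164 UMIs per 10000 on days 0, 1, 3, 7 and 14, and 3 of the 6 were at 0 on day 3. Enteroendocrine markers were high on day 3, at 63.4 UMIs per 10000 against 16.4, 6.35, 4.13 and 0.168 on days 0, 1, 7 and 14. Goblet markers gave 43.2, 32.1, 70.8, 7.87 and 1.62 on days 0, 1, 3, 7 and 14. The median mitochondrial share was 7.91%, 9.45%, 9.48%, 12.7% and 7.70% on the same days. The part of these differences in the enzyme levels was not tested. A narrower class, called absorptive-like, was therefore counted as well. It took OLFM4-low cells with at least 10 UMIs of the enterocyte markers that were neither enteroendocrine-like nor rich in the mucus genes FCGBP, CLCA1 and MUC2. It held 1127, 604, 3, 82 and 27 cells on days 0, 1, 3, 7 and 14. Levels of the 9 enzymes on day 3 are therefore levels of a class with almost no absorptive cells. The B cell, T cell and myeloid marker lists gave 0.0560 to 2.53 UMIs per 10000 in the OLFM4-low cells of days 0 to 14, and the part of such cells in the enzyme levels was not tested.

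Free RNA was present in these libraries. In the barcodes with at most 100 UMIs, the 9 genes together gave 4.66, 9.34, 0.208, 1.16 and 0.158 UMIs per 10000 on days 0, 1, 3, 7 and 14. B cell-like cells numbered 2423 to 12990 per library. In them the 9 genes gave 0.362, 0.386, 0.0440, 0.148 and 0.0270 UMIs per 10000 on the same days. The corresponding levels in OLFM4-low cells were 12.1, 33.5, 2.41, 51.3 and 66.7. Single genes made up much of the B cell-like sums on later days, with DPP4 at 98 of 196 UMIs on day 3. NAALADL1 gave 348 of 708 on day 7 and LCT 98 of 186 on day 14. The part of free RNA in these sums was not tested.

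**Figure D1:**
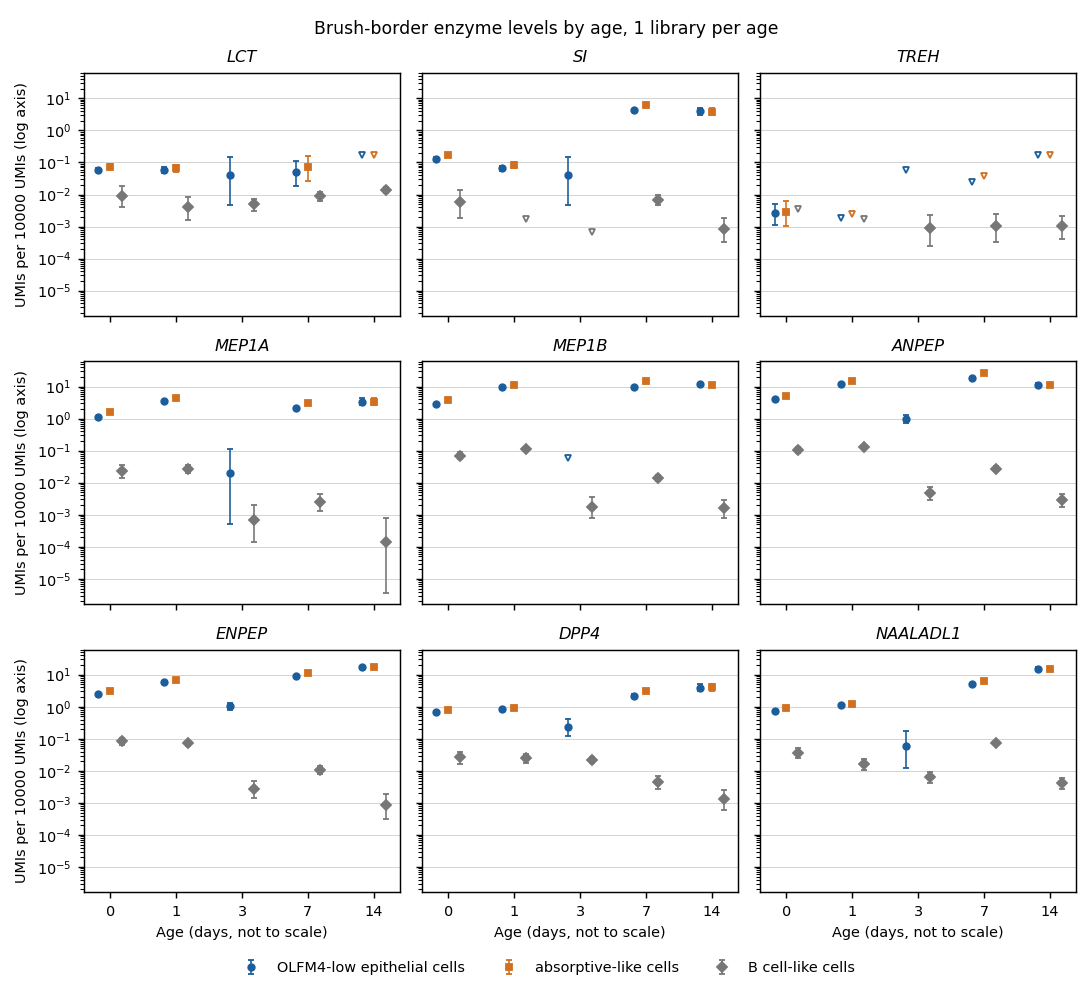
Level of each enzyme (UMIs per 10000 UMIs, log axis) on days 0, 1, 3, 7 and 14 in OLFM4-low epithelial cells (circles), absorptive-like cells (squares) and B cell-like cells (diamonds), with exact 95% Poisson intervals; open triangles mark the limit of 3 UMIs where none was counted, and classes under 10 cells are left out. In OLFM4-low cells SI stands near 0.1 in the 2 earliest libraries and near 4 on days 7 and 14, and in absorptive-like cells it is 6.09 on day 7. LCT stays below 0.1 wherever it was detected.

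Sucrase-isomaltase and lactase, which split the sugars of solid food and of milk, behaved differently with age. SI gave 0.132 UMIs per 10000 (interval 0.120 to 0.146) in OLFM4-low cells, 0.0651 (0.0531 to 0.0790), 0.0398 (0.00482 to 0.144), 4.25 (3.89 to 4.64) and 3.92 (3.06 to 4.95) on days 0, 1, 3, 7 and 14. The day 7 and day 14 libraries were high and their intervals overlapped, and the 3 earlier libraries were all low. The day 7 level was 32.1 times the day 0 level, and the day 1 level was 0.491 times the day 0 level. The latter became 0.911 times as a mean over cells, 0.999 times after thinning and 1.48 times without the 5% of all cells of each library with the most UMIs. That cut takes a share of the epithelial cells that is not fixed at 5%. Their median depth was 9776 and 16276.5 UMIs on days 0 and 1, against 3693 and 3835 over all cells. In absorptive-like cells SI gave 0.176, 0.0834, 6.09 and 3.84 on days 0, 1, 7 and 14, so that day 7 was 34.6 times day 0. The share of cells that carried SI differed as well. A UMI of SI was found in 8.18% of OLFM4-low cells, 4.30%, 32.3% and 89.3% on days 0, 1, 7 and 14, although the median depth of these cells was lower on the later days (8606, 15404, 4731 and 6015.5 UMIs). With every cell thinned to 1000 UMIs the shares were 0.747%, 0.905%, 19.9% and 32.1%. In B cell-like cells, with median depths of 3237 to 4458.5 UMIs, the unthinned share with SI was at most 0.326% over days 0 to 14.

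LCT was scarce in every library. It gave 180, 89, 2, 6 and 0 UMIs in the OLFM4-low cells of days 0, 1, 3, 7 and 14. Per 10000 UMIs these were 0.0590 (0.0507 to 0.0683), 0.0568 (0.0456 to 0.0699), 0.0398 (0.00482 to 0.144), 0.0505 (0.0185 to 0.110) and 0. On day 14 a count of 3 UMIs would have been a level of 0.168. All the intervals overlapped, so a change of LCT with age was not detectable at this depth. The barcodes with at most 100 UMIs held LCT at 0.0342 UMIs per 10000 on day 0 and 0.0213 on day 1. LCT was also counted in B cell-like cells, at 0.00917, 0.00408, 0.00494, 0.00877, 0.0142 and 0.0214 on days 0, 1, 3, 7, 14 and 21, so the highest B cell-like levels came from the 2 libraries with the fewest epithelial cells. TREH, which splits trehalose, had 8 UMIs in OLFM4-low cells on day 0 and 0 in those of every later age, where 3 UMIs would have been 0.00191 on day 1 and 0.168 on day 14.

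The meprins are zinc metalloendopeptidases, and MEP1A and MEP1B code for the alpha and beta subunits. MEP1A gave 1.15 UMIs per 10000 (1.11 to 1.19), 3.62 (3.53 to 3.72), 0.0199 (0.000504 to 0.111), 2.11 (1.85 to 2.38) and 3.36 (2.56 to 4.32) on days 0, 1, 3, 7 and 14. MEP1B gave 2.85 (2.79 to 2.91), 9.57 (9.42 to 9.73), no UMI, 9.88 (9.32 to 10.5) and 11.6 (10.1 to 13.3) on days 0, 1, 3, 7 and 14. The day 1 level exceeded the day 0 level for both subunits, at 3.16 times for MEP1A and 3.36 times for MEP1B. The intervals of days 1 and 14 overlapped for MEP1A and those of days 1 and 7 and of days 7 and 14 for MEP1B. In absorptive-like cells MEP1A stood at 1.58, 4.35, 3.08 and 3.39 and MEP1B at 3.85, 11.3, 14.4 and 11.5 on days 0, 1, 7 and 14, so day 0 was the lowest of the 4 libraries for both.

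The aminopeptidases cut single residues from the amino end of peptides. ANPEP, known also as aminopeptidase N, gave 4.08 UMIs per 10000 (4.01 to 4.15), 12.4 (12.3 to 12.6), 0.975 (0.721 to 1.29), 18.8 (18 to 19.6) and 11.3 (9.75 to 12.9) on days 0, 1, 3, 7 and 14. The intervals of days 1 and 14 overlapped and those of the other pairs did not, but day 14 over day 7, at 0.600 times, became 1.02 times after thinning each cell to 1000 UMIs. In absorptive-like cells ANPEP was 5.23, 14.4, 26.4 and 11.3 on days 0, 1, 7 and 14, with the day 14 level at 0.428 times that of day 7. ENPEP, which removes acidic residues, gave 2.42 (2.37 to 2.48), 5.76 (5.65 to 5.88), 1.03 (0.773 to 1.36), 8.84 (8.31 to 9.39) and 17.2 (15.3 to 19.2) on days 0, 1, 3, 7 and 14. Unlike ANPEP, its level was highest in the day 14 library in both classes, at 17.1 in absorptive-like cells against 3.1 on day 0.

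DPP4, which removes dipeptides and also cuts the incretin hormones, gave 0.676 UMIs per 10000 (0.647 to 0.706), 0.844 (0.799 to 0.890), 0.239 (0.123 to 0.417), 2.21 (1.95 to 2.49) and 3.98 (3.1 to 5.01) on days 0, 1, 3, 7 and 14. NAALADL1, a member of the family of glutamate carboxypeptidase, gave 0.732 (0.702 to 0.763), 1.12 (1.07 to 1.17), 0.0597 (0.0123 to 0.174), 5.25 (4.84 to 5.67) and 15.4 (13.6 to 17.3) on days 0, 1, 3, 7 and 14. The day 0 and day 1 libraries were close for these 2 genes, at 1.25 and 1.53 times, whereas day 14 exceeded day 0 by 5.88 times for DPP4 and 21.0 times for NAALADL1. In absorptive-like cells the day 14 level was 5.19 times the day 0 level for DPP4 and 16.9 times for NAALADL1. NAALADL1 had 348 UMIs in the B cell-like cells of day 7 (0.0727 per 10000), when the barcodes with at most 100 UMIs held it at 0.434.

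The enzymes thus did not share 1 course with age. A gene was counted as differing between 2 ages when the levels differed by at least 2-fold and the counting intervals did not overlap. Between days 0 and 1, 4 of the 8 enzymes with enough counts were higher on day 1 in OLFM4-low cells (MEP1A, MEP1B, ANPEP and ENPEP) and 1 was lower (SI), while 5.87% of all genes compared were higher and 5.18% lower. Between days 1 and 7, 3 of 8 were higher on day 7 (SI, DPP4 and NAALADL1) and none was lower, against 10.7% of all genes higher and 5.33% lower. Between days 0 and 7, 6 of 8 were higher on day 7, and none was lower, against 14.2% and 5.21% of all genes, with a median log2 fold of 1.83 beside 0.38 over all genes. Between days 7 and 14, only NAALADL1 was higher, at 2.94 times, and none was lower, against 4.09% and 7.61% of all genes. Between days 0 and 14, 7 of 8 were higher on day 14, all but LCT, and none was lower, against 8.09% and 6% of all genes. On day 3, 6 of 8 were lower than on day 1 and none was higher, against 10.3% and 15.7% of all genes, in cells with the low enterocyte markers described above.

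The same counts were made in absorptive-like cells. The enterocyte markers together gave 105, 203, 155 and 165 UMIs per 10000 in this class on days 0, 1, 7 and 14 and the goblet markers 4.11, 7.13, 11.4 and 1.64, so its makeup also differed between ages and the enterocyte markers were higher on day 1 than on day 0. The part of these differences in the enzyme levels was not tested. Day 1 against day 0 again gave 4 higher and 1 lower of 8 enzymes (8.67% and 3.71% of all genes), and day 7 against day 1 gave 3 higher and 0 lower (6.32% and 5.25%). Day 7 against day 0 gave 6 higher and 0 lower of 8 (11.5% and 4.54%), and day 14 against day 0 gave 7 higher and 0 lower (9.16% and 5.97%). Day 14 against day 7 gave 1 higher, NAALADL1 at 2.44 times, and 1 lower, ANPEP (4.03% and 6.55%).

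The number of enzymes found in a single cell differed in the same way. The median absorptive-like cell carried UMIs of 5, 6, 6 and 7 of the 9 enzymes on days 0, 1, 7 and 14, with median depths of 15704, 18141, 9219 and 6146 UMIs. The number of enzymes was not compared with depth among the cells of a library. Cells with 5 or more enzymes made up 54.1% of the absorptive-like cells, 73.7%, 87.8% and 96.3% on days 0, 1, 7 and 14. The median of the summed enzymes per cell was 13.2 UMIs per 10000 on day 0 (quartiles 6.87 and 21.7), 38.3 on day 1 (25.8 and 49.8), 72.3 on day 7 (54.2 and 94.5) and 64.6 on day 14 (48.2 and 83.2). The upper quartile of day 0 was below the lower quartile of the other 3 ages.

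Related gene groups were read at the same ages for comparison. Of the list of other brush-border hydrolases, 13 of 18 could be compared in absorptive-like cells between days 0 and 7, and 11 were higher on day 7, where 11.5% of all genes were higher. The starch-digesting MGAM was at 0.114 UMIs per 10000, 0.978 and 6.22 on days 0, 7 and 14. ACE did not pass, at 0.585, 0.297 and 0.565. Of the 11 transporters of sugars, amino acids and peptides, 7 were higher on day 7 than on day 0. SLC15A1, the carrier of di- and tripeptides, stood at 0.254, 0.706 and 1.53 on days 0, 7 and 14. The scaffold of the microvilli gave 5 higher of 14, and the transcription factors of enterocyte genes gave 2 higher of 13, ELF3 and the bile acid receptor NR1H4, a share near that of all genes. PRDM1, a repressor known for its role in the suckling intestine, was at 0.994 UMIs per 10000, 0.743 and 0.791 on days 0, 7 and 14, which did not reach the 2-fold limit.

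The contrast between OLFM4-low and OLFM4-high cells could be tested, since both classes came from the same libraries. There were 3 libraries that held at least 10 cells of each class, with 2409 and 259 cells on day 0, 884 and 108 on day 1 and 62 and 23 on day 3. ANPEP gave 4.08 UMIs per 10000 in OLFM4-low and 0.306 in OLFM4-high cells on day 0, 12.4 and 0.481 on day 1 and 0.975 and 0.0754 on day 3. ENPEP gave 2.42 and 0.290, 5.76 and 0.724, and 1.03 and 0.188 on the same days. For both aminopeptidases the OLFM4-low level was the higher one in 3 of 3 libraries.

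MEP1A gave 1.15 and 0.0404 UMIs per 10000 in OLFM4-low and OLFM4-high cells on day 0 and 3.62 and 0.0424 on day 1, and MEP1B gave 2.85 and 0.0463, then 9.57 and 0.189. On day 3 each meprin had at most 1 UMI in either class, too few to compare them. SI gave 0.132 and 0.0439 on day 0, 0.0651 and 0.0339 on day 1 and 0.0398 and 0.0377 on day 3, where the counts were 2 and 1. LCT gave 0.0590 and 0.0143, 0.0568 and 0.00565, and 0.0398 and 0. NAALADL1 gave 0.732 and 0.166, 1.12 and 0.172, and 0.0597 and 0.0377. DPP4 gave 0.676 and 0.319 on day 0, 0.844 and 0.325 on day 1 and 0.239 and 0.264 on day 3, where the order was turned with 12 and 7 UMIs.

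**Figure D2:**
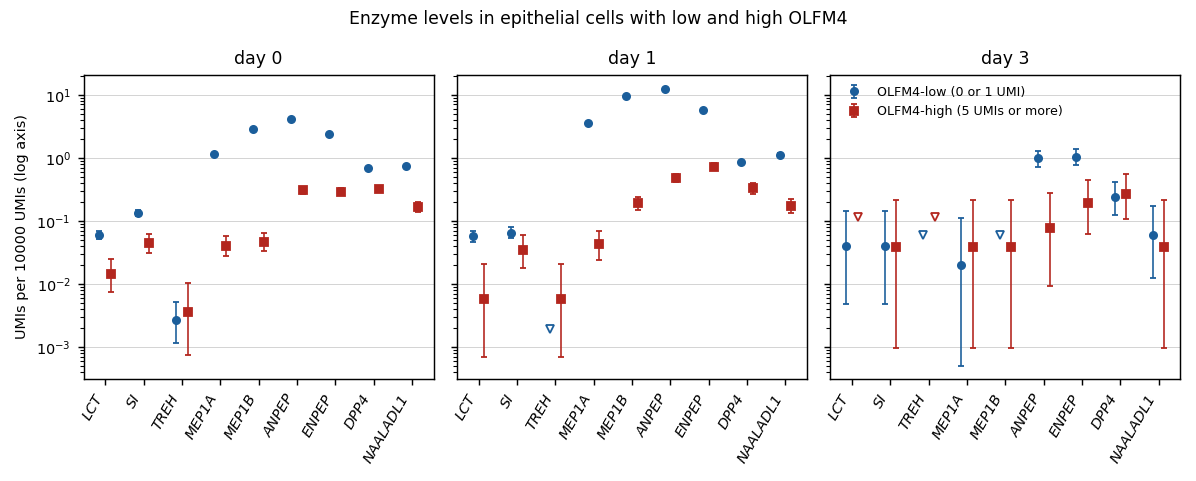
Level of each enzyme (UMIs per 10000 UMIs, log axis) in OLFM4-low (circles) and OLFM4-high (squares) epithelial cells of the day 0, day 1 and day 3 libraries, with exact 95% Poisson intervals and open triangles at the limit of 3 UMIs where none was counted. On days 0 and 1 the OLFM4-low value lies above the OLFM4-high value for every enzyme but TREH, and on day 3 the intervals overlap for all except ANPEP and ENPEP.

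The sums per library and class were compared with edgeR's quasi-likelihood test with the library as a block, and p-values were adjusted by the Benjamini-Hochberg method over all 11633 genes tested. All 8 enzymes that passed the low-count filter were higher in OLFM4-low cells, against 11.7% of all genes higher and 8.79% lower. TREH did not pass the filter. The log2 fold change was 5.71 ± 0.66 (SE, 3 libraries) for MEP1B with an adjusted p of 0.000487, and 5.48 ± 0.60 for MEP1A with an adjusted p of 0.000377. Per 10000 UMIs the meprins of OLFM4-high cells stood near the level of B cell-like cells, where MEP1A gave 0.0229 and 0.0268 and MEP1B 0.0700 and 0.111 on days 0 and 1. The intervals of OLFM4-high and B cell-like cells overlapped on both days for MEP1A and for LCT and on day 0 for MEP1B. The depths differed, with medians of 22244 and 25379 UMIs in OLFM4-high and 3237 and 3471 in B cell-like cells on days 0 and 1. MEP1A had 34 UMIs in 259 OLFM4-high cells and 20 in 2423 B cell-like cells on day 0. On day 1 it had 15 in 108 and 46 in 4129. A like level per 10000 is therefore not a like count per cell, and the part of free RNA in the sizes of these folds was not tested. The log2 fold change was 4.17 ± 0.38 for ANPEP (edgeR adjusted p = 0.000214), 2.93 ± 0.32 for ENPEP (0.000367) and 2.40 ± 0.32 for NAALADL1 (0.00107). The disaccharidases LCT and SI gave 2.50 ± 0.54 (edgeR adjusted p = 0.0104) and 1.32 ± 0.40 (0.0436), and DPP4 gave 1.05 ± 0.33 (0.0486). LCT had 12 and 2 UMIs in OLFM4-high cells on days 0 and 1. It passed the low-count filter through its OLFM4-low counts, which favoured a higher call, so its place among the 8 adds no support of its own. The p-values of SI and DPP4 were near the threshold, neither they nor MEP1B were called with DESeq2, neither was called in cells with no PTPRC UMI (adjusted p of 0.0555 and 0.0566 with edgeR), and DPP4 lost its call without the day 0 library (log2 0.82) or the day 1 library (0.71). Without day 0, 2 of the 5 enzymes still tested were called higher, beside 107 of 9982 genes. Without day 1 the counts were 5 of 8 beside 610 of 11462, and without day 3 they were 8 of 8 beside 2213 of 12687. The folds themselves ranged from 5.24 to 5.83 for MEP1B, 3.71 to 4.40 for ANPEP, 2.74 to 3.07 for ENPEP and 2.07 to 2.53 for NAALADL1 over these settings. The fold of MEP1A was 4.65 without day 1 and 5.57 without day 3, and it was not tested without day 0. The OLFM4-high cells were the deeper ones, with median totals of 22244, 25379 and 12743 UMIs against 8606, 15404 and 6504.

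The lists of related genes were read in the same fit, in which 11.7% of all genes were higher and 8.79% lower. Through which class the listed genes passed the low-count filter was not examined. Of the other brush-border hydrolases, 8 were higher, 1 was lower, 2 did not pass and 7 were not tested, with a median log2 fold of 3.78 beside 0.03 over all genes. The peptidases ACE (6.05) and XPNPEP2 (5.09) and the dipeptidase DPEP1 (4.68) were among those higher, and MGAM2 was the one lower (-1.55), whereas MGAM was higher (4.67). The scaffold list, which holds the microvillar cadherins and their linkers, had 10 higher, 0 lower and 4 that did not pass, with a median of 1.47 and the actin bundler ESPN at 4.17. Of the transporters, 6 were higher and 3 did not pass, with a median of 2.14. SLC6A19, the carrier of neutral amino acids, gave 5.09, and the sodium-glucose carrier SLC5A1 gave 1.22 ± 0.49 with an edgeR adjusted p of 0.111. Of the transcription factors, 5 were higher and 7 did not pass, with a median of 0.50, and those higher were HNF4G, GATA5, PRDM1, KLF4 and NR1H4. CDX2 gave 0.02 ± 0.33 and HNF4A -0.67 ± 0.26, with edgeR adjusted p-values of 0.982 and 0.0991.

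**Figure D3:**
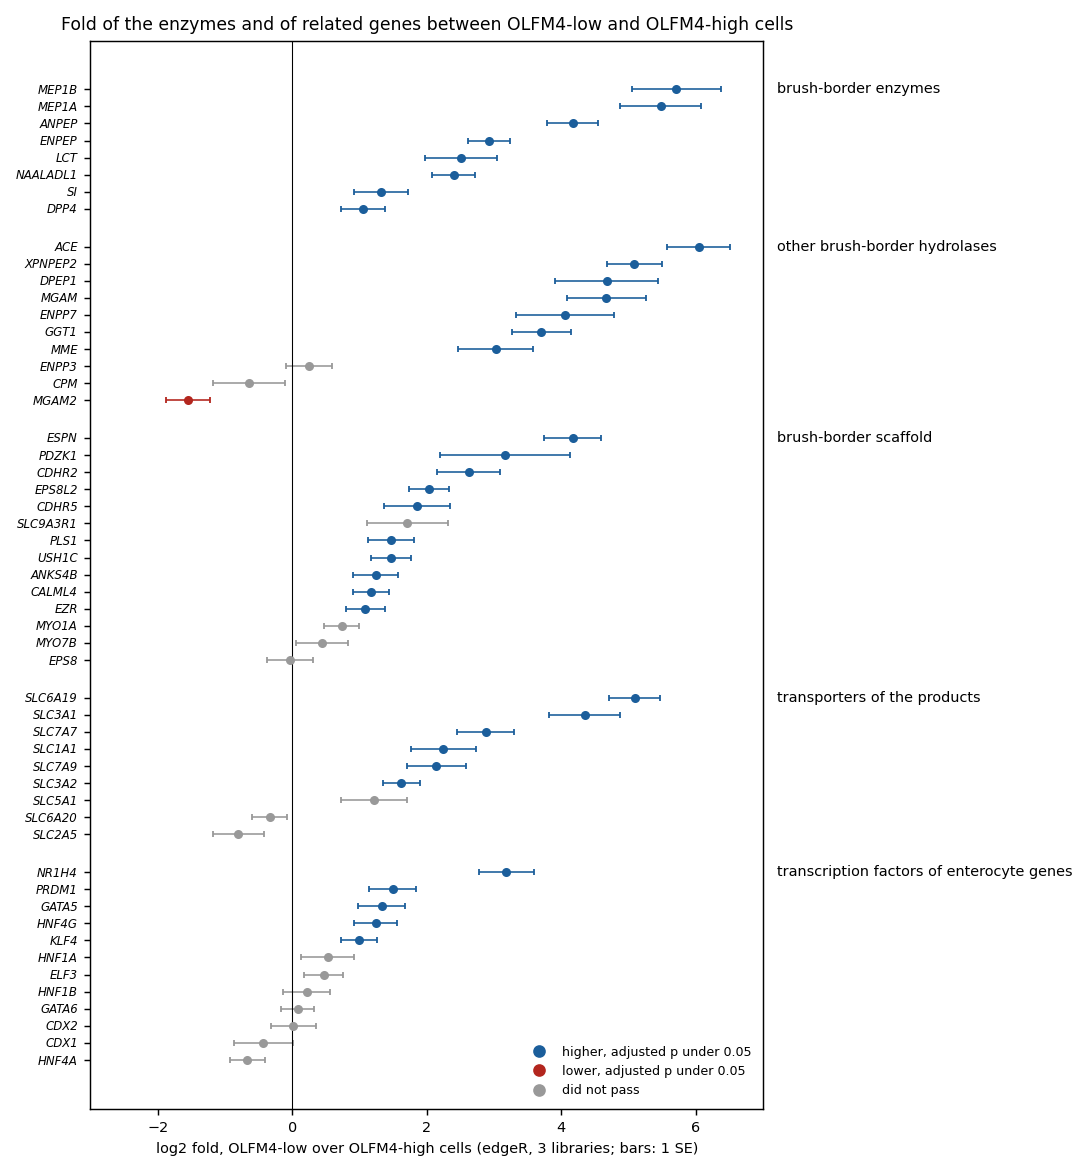
The log2 fold of OLFM4-low over OLFM4-high cells (edgeR, 3 libraries, bars of 1 SE) for the 8 enzymes tested and for tested genes of the 4 related lists (1 called hydrolase is not drawn), coloured by whether the adjusted p was under 0.05. The enzymes span 1.05 to 5.71, the other hydrolases reach from -1.55 for MGAM2 to 6.05 for ACE, and the transcription factors reach from -0.67 for HNF4A to 3.18 for NR1H4.

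The epithelial gate also took secretory cells, and the enzymes were compared between these and enterocytes. Enteroendocrine-like cells, with at least 10 UMIs of the genes CHGA, CHGB, SCG2, SCG5, PCSK1N and NEUROD1, were compared with enterocyte-like cells in the libraries of days 0, 1 and 7. Enterocyte-like cells were OLFM4-low, had at least 10 UMIs of the enterocyte markers and passed neither the enteroendocrine gate nor a gate of 5 UMIs of FCGBP, CLCA1, MUC2, ZG16 and SPINK4. Of the 7 enzymes tested, 6 were lower in enteroendocrine-like cells and none was higher, against 17.5% and 16.8% of all genes. The log2 fold was -4.76 ± 0.50 for SI, -4.17 ± 0.36 for MEP1B, -4.15 ± 0.39 for MEP1A, -2.72 ± 0.40 for ANPEP, -2.71 ± 0.31 for NAALADL1 and -2.44 ± 0.31 for ENPEP. Their edgeR adjusted p-values lay between 4.16e-16 and 3.51e-08. MEP1A had 23, 0 and 0 UMIs in enteroendocrine-like cells on days 0, 1 and 7, so the size of its fold rested on day 0, and its fitted value ranged from -10.05 without day 0 to -3.58 without day 1. The fold of ANPEP ranged from -3.62 without day 0 to -1.97 without day 7, and both enzymes kept their calls. SI had 4, 1 and 0 UMIs in enteroendocrine-like cells, and its fold was -5.10 without day 1 and -3.94 without day 7 and was not tested without day 0. MEP1B had 64, 22 and 0 UMIs in enteroendocrine-like cells on days 0, 1 and 7. SI, MEP1A and MEP1B passed the low-count filter through their enterocyte-like counts, which favoured lower calls, so these calls add no support of their own. Enteroendocrine-like cells did not need the 10 UMIs of enterocyte markers. Those markers gave 21.0, 29.9 and 39.3 UMIs per 10000 in them on days 0, 1 and 7, against 64.6, 123 and 106 in enterocyte-like cells. The enteroendocrine gate was not limited to OLFM4-low cells, and OLFM4 gave 1.19 UMIs per 10000 in it on day 0 against 0.0549 in enterocyte-like cells. The median mitochondrial share was 5.16%, 4.47% and 2.84% in enteroendocrine-like cells on days 0, 1 and 7 against 10.4%, 19.5% and 8.41%. The part of these differences in the enzyme folds was not tested.

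DPP4 was the exception in enteroendocrine-like cells, with a log2 fold of -0.48 ± 0.27 and an edgeR adjusted p of 0.170. Its fold was fitted against enterocyte-like cells, whereas its levels below are set against absorptive-like cells, a different class. Its level was 0.835 UMIs per 10000 (0.738 to 0.941) in enteroendocrine-like cells on day 0 against 0.774 (0.736 to 0.813) in absorptive-like cells, 1.11 (0.851 to 1.42) against 0.912 (0.858 to 0.968) on day 1, and 1.62 (0.775 to 2.97) against 3.02 (2.65 to 3.43) on day 7. A UMI of DPP4 was found in 33.5%, 44.4% and 45.5% of enteroendocrine-like cells on days 0, 1 and 7, at median depths of 4247, 4855 and 5619 UMIs. The share in B cell-like cells was 0.825%, 0.920% and 0.214%.

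Cells with goblet markers were set apart by 2 gates. With the gate on all 5 genes just named, 1 of the 8 enzymes was higher (MEP1A, 1.2 ± 0.19) and 2 were lower (SI, -1.17 ± 0.22, and DPP4, -0.75 ± 0.18) than in enterocyte-like cells in 3 libraries, against 2.76% and 1.17% of all genes. None of these calls was made without day 0 (1.27, -1.45 and -0.82), and SI (-1.12) and DPP4 (-0.80) were not called without day 1. These cells did not match the name of goblet cells, since the enterocyte markers gave 85.3, 175 and 218 UMIs per 10000 in them on days 0, 1 and 7, against 64.6, 123 and 106 in the enterocyte-like cells. The goblet markers gave 66.9, 40.2 and 24.9, with 4 of the 5 at 0 on day 7, where the gate held 33 cells and no epithelial cell reached 5 UMIs of FCGBP, CLCA1 and MUC2 together. The part of these marker differences in the enzyme folds was not tested. A gate on those 3 mucus genes, chosen after the data were seen, left the libraries of days 0 and 1. With it all 8 enzymes were lower in the mucus-gated than in the absorptive-like cells, against 13.9% of all genes, with log2 folds between -2.75 for SI and -1.40 for DPP4. Absorptive-like cells needed 10 UMIs of the enterocyte markers and mucus-gated cells did not, so the gates favoured lower enzymes in the mucus gate in advance. Those markers gave 21.1 and 67.4 UMIs per 10000 in the mucus gate on days 0 and 1, against 105 and 203 in absorptive-like cells. The mucus gate was not limited to OLFM4-low cells, and OLFM4 gave 4.11 and 17.2 UMIs per 10000 in it on days 0 and 1 against 0.0352 and 0.0136 in absorptive-like cells. The part of these differences in the folds was not tested. The level of ANPEP was 0.990 UMIs per 10000 in cells of the mucus gate and 5.23 in absorptive-like cells on day 0, and 5.26 and 14.4 on day 1. No enzyme UMI was found in 55.6% and 26.4% of the mucus-gated cells on days 0 and 1, against 2.93% and 0.497% of the absorptive-like cells. The enteroendocrine comparison with the mucus gate gave 7 of 8 enzymes lower, against 21.7% of all genes, and DPP4 at -0.35 ± 0.27. LCT had 6, 1 and 0 UMIs in enteroendocrine-like cells on days 0, 1 and 7. It passed the filter through its absorptive-like counts, as did SI, MEP1A and MEP1B, so these calls add no support of their own.

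**Figure D4:**
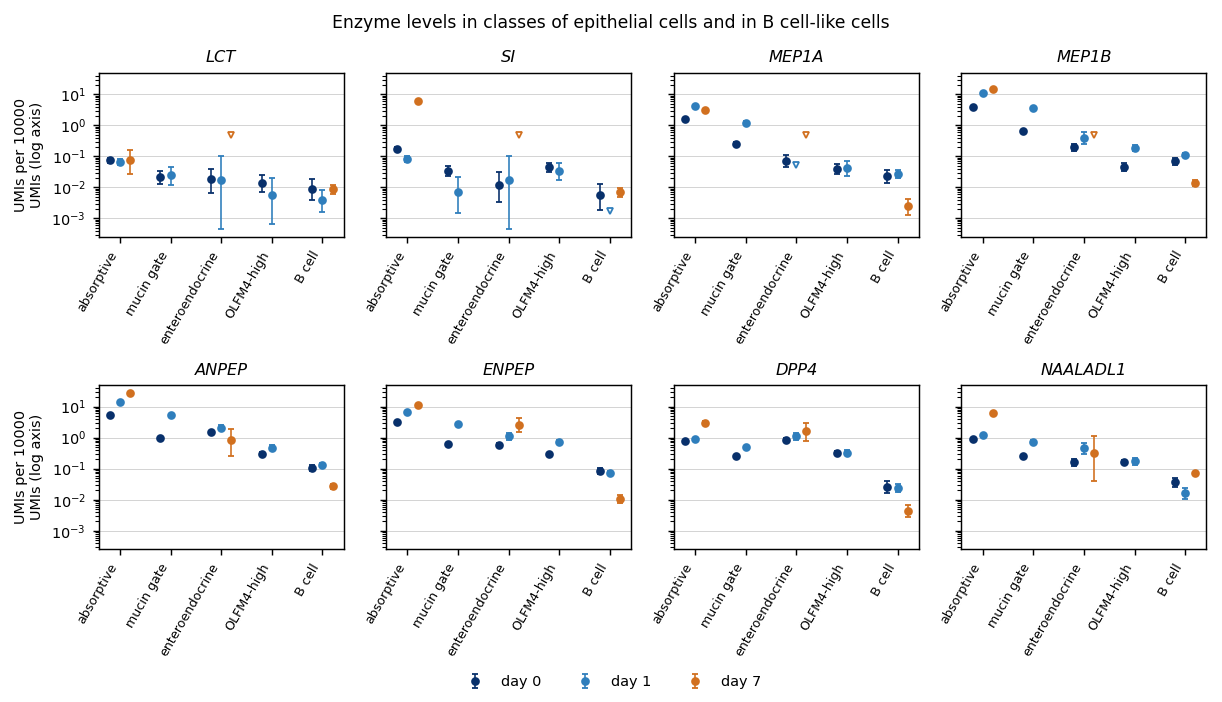
Level of 8 enzymes (UMIs per 10000 UMIs, log axis) in absorptive-like, mucus-gated, enteroendocrine-like, OLFM4-high and B cell-like cells of the day 0, day 1 and day 7 libraries, with exact 95% Poisson intervals and open triangles at the limit of 3 UMIs where none was counted. DPP4 is at a like level in absorptive-like and enteroendocrine-like cells on days 0 and 1, whereas the other enzymes, where counted, are lower in each of the 3 other epithelial classes.

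The enzymes were also read in the other cell classes of the mucosa, with B cell-like cells as the common reference. OLFM4-low cells were compared with B cell-like cells in 5 libraries, and 8 of 8 enzymes tested were higher, against 26.5% of all genes higher and 26.3% lower. None of these enzymes would have passed the low-count filter on B cell-like counts alone, which favoured higher calls. The count of 8 of 8 therefore adds no support of its own. The log2 fold ran from 2.46 ± 0.52 for LCT (edgeR adjusted p = 0.00486) to 9.06 ± 1.27 for SI (0.000728), where SI ranged from 7.78 without day 14 to 10.25 without day 0. In B cell-like cells SI had only 5, 0, 33 and 6 UMIs on days 0, 1, 7 and 14. LCT lost its call without the 5% of all cells of each library with the most UMIs, at 1.39 with an edgeR adjusted p of 0.124. LCT and MEP1B were each higher in OLFM4-low cells in 4 of 5 libraries. LCT had 0 UMIs in OLFM4-low and 98 in B cell-like cells on day 14, and MEP1B had 0 and 8 on day 3.

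DPP4, known on activated T cells as CD26, was the 1 enzyme of 4 tested that was higher in T and NK cell-like than in B cell-like cells, with a log2 fold of 1.17 ± 0.31 over 6 libraries (edgeR adjusted p = 0.0168), against 19.5% of all genes. Its level was 0.0442 UMIs per 10000 in T and NK cell-like and 0.0264 in B cell-like cells on day 0, 0.0620 and 0.0245 on day 1, 0.0727 and 0.0220 on day 3, and 0.0147 and 0.00439 on day 7, with no UMI in T and NK cell-like cells on days 14 and 21. The call was lost without day 1 (1.13) or day 3 (1.01). In endothelial-like cells DPP4 was higher as well, at 3.00 ± 0.31 over 3 libraries (edgeR adjusted p = 0.000158), against 25.7% of all genes, with 0.391, 0.241 and 0.241 UMIs per 10000 on days 0, 1 and 3. The enterocyte markers were also higher in these cells, at 13.2, 16.2 and 23.9 UMIs per 10000 against 1.28, 1.79 and 0.0335 in B cell-like cells. On day 3, 4 of the 6 were at 0 in endothelial-like cells. The part of this difference in the DPP4 fold was not tested. MEP1B (-1.52 ± 0.44) and ENPEP (-2.05 ± 0.57) were lower there than in B cell-like cells, against 23% of all genes, from 15 and 9 UMIs in all. MEP1B lost that call without day 0 (-1.98) and both genes lost it without day 1 (-0.99 and -1.25). B cell-like cells should lack both enzymes, and the endothelial-like cells were deeper. Their medians were 5435, 6202.5 and 7211 UMIs on days 0, 1 and 3, against 3237, 3471 and 4058 in B cell-like cells. These calls are therefore not read as a difference between the cell types, and the part of depth and free RNA in them was not tested.

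In myeloid-like cells no enzyme of the 3 tested passed with edgeR, against 17.8% of all genes higher and 17.4% lower, and ANPEP, known there as CD13, gave 2.60 ± 1.05 with an adjusted p of 0.0806. Its fold ranged from 1.26 without day 3 to 3.67 without day 1, and it was called in none of the 5 settings that left out a library. It was at 0.293, 0.224, 0.814, 0.122 and 0.0309 UMIs per 10000 on days 0, 1, 3, 7 and 14, against 0.108, 0.130, 0.00471, 0.0269 and 0.00290 in B cell-like cells. The myeloid-like class held 17 cells with 82028 UMIs of all genes on day 7 and 83 cells with 323520 on day 14. The myeloid-like levels of those days therefore rest on very few UMIs. ANPEP and DPP4 had unadjusted p-values of 0.0338 and 0.0341. In fibroblast-like cells none of 6 passed with edgeR, against 28.4% of all genes higher, and ENPEP gave 1.77 ± 0.79 (adjusted p = 0.0921). MEP1B was the 1 enzyme there with an unadjusted p under 0.05 (0.0292). Without day 3, ENPEP was called higher (0.88) and MEP1B lower (-1.11). Smooth muscle and mural cells, in which ENPEP marks pericytes, were not tested, since they reached 10 cells in 2 libraries and this comparison was set to need 3. ENPEP had 2 UMIs in 29 such cells on day 0 and 27 UMIs in 48 cells on day 1, or 0.299 and 1.66 UMIs per 10000.

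Some genes ran closely with the enzymes over the 6 sums of the OLFM4 contrast, which share 3 libraries and differ in depth, and this is given as a description. By Pearson's r of log2 CPM, the gene most like MEP1A was TMEM37 (0.998), and CA4 and SELENOP followed. For MEP1B it was FAM160A2 (0.998), for ANPEP TMEM56 (0.997), for DPP4 MELTF (0.997), for ENPEP FAM46B (0.998), for NAALADL1 HMOX1 (0.999), for SI the hormone gene SCT (0.990) and for LCT CNTNAP2 (0.995). Among the enzymes themselves r was highest for DPP4 and MEP1B (0.991) and lowest for SI and ENPEP (0.603).

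In the annotation of Sscrofa11.1, LCT lies at chr15:16016076-16071620 and DPP4 at chr15:68661764-68742961, SI at chr13:104296281-104379558, MEP1A at chr7:41587698-41625014 and ANPEP at chr7:55351081-55373856. MEP1B is at chr6:116015021-116049796, ENPEP at chr8:111765839-111858349, NAALADL1 at chr2:7127197-7138420 and TREH at chr9:45949891-45965372. Each span covers the whole gene with its exons and introns. DPP4 overlaps LOC110257119, ENPEP overlaps LOC106504743 and NAALADL1 overlaps SAC3D1. How reads in the shared stretches were counted was not examined.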

How the data were processed

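Single-cell libraries of 6 ages, 1 each, were analysed. The authors aligned the reads with Cell Ranger 3.1.0 and STAR to susScr11 (Sscrofa11.1), per the labels, and deposited unfiltered raw UMI counts per gene and barcode. The labels name the third version of the kit and the methods the second. No deposited cell annotation was used, no doublet caller was run and no column lacked a sample. Levels are UMIs of a class per 10000 UMIs of that class. Classes came from marker counts: non-epithelial cells needed at most 1 UMI of EPCAM, KRT8 and VIL1 and at least 3 UMIs (B cell, T and NK cell, endothelial), 5 (fibroblast) or 10 (myeloid, mural) of their own markers. Sums per library and class with at least 10 cells were tested with edgeR 4.0.16 (TMM, filterByExpr, glmQLFit, library as block) in R 4.3.3 and, as an alternative, DESeq2 1.42.0. A call needed an adjusted p under 0.05. The SE of an edgeR fold was derived from the test, as the absolute log2 fold over the square root of the quasi-likelihood F statistic. Libraries are the replicates, and each came from other piglets of another age, so the replicates of a contrast differ in age. How many piglets entered each library is not given in the labels. The scripts were tested on simulated data. Named genes were the 9 enzymes, the genes of the marker and related lists, and the 3 genes most correlated with each enzyme (log2 CPM with 10 added). The enzymes and lists were chosen with earlier results of these data known. Alternatives covered the gates, filters, normalization, depth and each library. Sequences of promoters and proteins were not analysed here. Some genes of the lists are not reported here by name.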

Additional observations from a re-analysis of the deposited data

Results flagged for a closer look

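DPP4 ran the other way in 1 library in 2 contrasts. In the day 3 library its level in OLFM4-low cells was 0.905 times that in OLFM4-high cells, from 12 and 7 UMIs, while it was higher in OLFM4-low cells on days 0 and 1. In the day 7 library its level in enteroendocrine-like cells was 0.535 times that in absorptive-like cells, from 10 and 244 UMIs, while it was the higher one in enteroendocrine-like cells on days 0 and 1. With 1 library per age, neither difference was tested.

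Barcodes with at most 100 UMIs, which the comparisons did not use, carried the enzymes in every library. Summed over the 9 genes they held 4.66 UMIs per 10000, 9.34, 0.208, 1.16, 0.158 and 0.0303 on days 0, 1, 3, 7, 14 and 21. The 2 highest values came from the 2 libraries with the most epithelial cells.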

How the results depend on the processing

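Of the single-gene log2 folds recomputed under the alternatives, 338 kept their direction and their side of the threshold, 34 lost their call, 7 gained one and 13 turned in direction. Of the 8 enzymes called in the OLFM4 contrast, 5 were called with DESeq2 (SI, DPP4 and MEP1B lost), 1 with no replicate block (ANPEP), 2 after thinning to 1000 UMIs, 6 in cells with no PTPRC UMI (SI and DPP4 lost), 5 without enteroendocrine-like cells and those of the 5-gene goblet gate, 6 without enteroendocrine-like cells and the mucus gate, and 4 without the 5% of cells with the most UMIs, with 3, 6, 7 and 6 enzymes tested in the thinned cells, without each of the 2 gates and in the last of these. The 5% with the most UMIs were taken over all cells of each library. Over all genes in the OLFM4 contrast, 1364 were higher and 1023 lower. The number higher was 2072 with no low-count filter, 288 with no replicate block, 2213 with at least 50 cells per class and 258 after thinning. The number lower was 334 with no replicate block, 1665 with at least 50 cells, 235 after thinning and 676 without enteroendocrine-like cells and the 5-gene gate. The pairing comes from the design, since both classes were taken from the same library. Against B cell-like cells, thinning left 1769 genes higher and 2063 lower in place of 3217 and 3191. The goblet gate without SPINK4, added after the data were seen, gave 0 enzymes higher and 8 lower, with MEP1A at -2.35 and MEP1B at -2.22, both turned. The cause of these changes was not tested.

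Leaving out 1 library at a time gave 2 to 8 enzymes called in the OLFM4 contrast, 107 (without day 0) to 2213 (without day 3) genes higher and 69 to 1665 lower, with 610 and 444 without day 1. Enzymes higher ranged from 0 to 1 in T and NK cell-like, fibroblast-like and 5-gene gate cells. Enzymes lower ranged from 0 to 2 in endothelial-like, 0 to 1 in fibroblast-like and 0 to 3 in 5-gene gate cells, where none was lower without day 0 or without day 1 and none higher without day 0. Some folds that were not called changed sign. The log2 fold of ANPEP ranged from -0.25 to 0.19 in T and NK cell-like, -0.80 to 0.28 in endothelial-like, -0.27 to 1.35 in fibroblast-like and -0.27 to 0.26 in 5-gene gate cells. That of DPP4 ranged from -0.26 to 1.41 in fibroblast-like cells, and that of NAALADL1 from -0.14 to 0.43 in endothelial-like and -0.70 to 1.40 in fibroblast-like cells.

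The summed enzymes of OLFM4-low cells were 2.77 times as high on day 1 as on day 0. This fold was 2.71 with the epithelial gate at 10 UMIs, 2.51 without enteroendocrine-like cells and the mucus gate, 2.56 without the deepest 5% of all cells of each library, 3.12 as a mean over cells and 3.11 after thinning. For day 7 over day 0 it was 4.24, and 4.40 with the gate at 10, 3.56 without enteroendocrine-like cells and the mucus gate, 4.39 without the deepest 5%, 4.08 after thinning, 4.46 with a mitochondrial share below 25% and 4.97 without enteroendocrine-like cells and the 5-gene gate. For day 14 over day 7 it was 1.30, and 1.22 with the gate at 10, 1.2 with no PTPRC UMI, 1.48 without enteroendocrine-like cells and the 5-gene gate, 1.40 without the deepest 5%, 1.64 as a mean over cells and 1.64 after thinning. Of the folds between ages recomputed under the alternatives, summed and for single enzymes, 141 stayed within the counting interval of the fold, 88 moved beyond it and 3 turned in direction, all of single enzymes whose interval had not held 1. SI on day 1 over day 0 was 1.48 without the deepest 5%, DPP4 on day 1 over day 0 was 0.994 after thinning, and ANPEP on day 14 over day 7 was 1.02 after thinning. Counts of at most 3 UMIs in OLFM4-low cells limit what can be read for LCT, SI, MEP1A, MEP1B and NAALADL1 on day 3, for LCT on day 14 and for TREH after day 0, and LCT had 6 UMIs on day 7. The 28 epithelial cells on day 14 limit every level there.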
